A study of Homo sapiens with 10 samples.

Results

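The genes described here are 40 genes of G2 and mitosis, listed by gene symbol. They were chosen with earlier results of these data known, and all 40 were found among the 23284 genes of the expression table. They encode the kinases and cyclins that start mitosis, the chromosomal passenger complex, the spindle checkpoint, the kinetochore, the spindle and its motors, the midzone that guides cytokinesis, and chromosome structure proteins. They were followed in K562 cells, an established human chronic myelogenous leukemia cell line grown in RPMI with fetal bovine serum, treated for 48 h with vehicle (DMSO), with CBP30 at 2 or 5 µM, or with I-CBP112 at 2 or 5 µM. Both compounds bind the bromodomains of the acetyltransferases CREBBP and EP300, and no genetic change was made to the cells. All 5 conditions share 1 cell line, and by their labels they differ in compound and concentration only. Each condition had 2 samples that the labels call biological replicates. Polyadenylated RNA was sequenced, and levels are given in FPKM (fragments relative to transcript length and to the mapped reads of the library). Differences are on the log2(FPKM + 1) scale, and a gene was called when its Benjamini-Hochberg adjusted p over all 12788 tested genes was under 0.05 in limma.

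Transcripts of mitotic genes accumulate in late S and G2 phase and are lost after division, so that their level in a population of growing cells depends on how many cells are in G2 and mitosis as well as on transcription in each cell. Many of their promoters carry the cell cycle genes homology region (CHR), a short element bound by the MuvB complex, which represses these genes together with E2F4 and p130 or p107 (the DREAM complex) and activates them together with B-MYB and FOXM1. A second common element is the CCAAT box, bound by the trimeric factor NF-Y. In RNA from a whole culture, fewer cells in G2 and mitosis cannot be told apart from less mitotic RNA per cell.

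The promoters of 6 genes are shown because they carry the elements that most of the 40 share. Each stretch covers the bases from −150 to −1 relative to the annotated start, 5′ to 3′ on the strand of the gene, from RefSeq on GRCh38.p14, and capitals mark the CHR (TTTGAA, or TTCAAA on the opposite strand), its variant TTTAAA, and the CCAAT box (or ATTGG). PLK1 lies at chr16:23678739-23678888 on the plus strand, CCNB2 at chr15:59104996-59105145 (plus), CCNB1 at chr5:69167000-69167149 (plus), KIF11 at chr10:92592980-92593129 (plus), PRC1 at chr15:90994536-90994685 (minus) and ASPM at chr1:197146670-197146819 (minus).
PLK1: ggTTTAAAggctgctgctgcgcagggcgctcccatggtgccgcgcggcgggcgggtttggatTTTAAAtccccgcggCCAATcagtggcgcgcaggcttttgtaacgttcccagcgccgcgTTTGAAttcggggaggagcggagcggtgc
CCNB2: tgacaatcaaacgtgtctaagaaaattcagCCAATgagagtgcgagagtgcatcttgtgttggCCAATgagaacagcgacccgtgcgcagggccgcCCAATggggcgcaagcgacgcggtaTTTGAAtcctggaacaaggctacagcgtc
CCNB1: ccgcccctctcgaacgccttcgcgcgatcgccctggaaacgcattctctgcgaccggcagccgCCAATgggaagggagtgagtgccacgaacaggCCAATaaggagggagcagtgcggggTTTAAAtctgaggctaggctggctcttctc
KIF11: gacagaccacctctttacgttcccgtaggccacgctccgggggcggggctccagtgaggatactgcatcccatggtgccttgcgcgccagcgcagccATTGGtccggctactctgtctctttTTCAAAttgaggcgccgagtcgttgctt
PRC1: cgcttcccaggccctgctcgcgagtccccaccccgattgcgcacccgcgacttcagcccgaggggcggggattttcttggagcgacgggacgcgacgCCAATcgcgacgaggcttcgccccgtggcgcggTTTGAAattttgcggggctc
ASPM: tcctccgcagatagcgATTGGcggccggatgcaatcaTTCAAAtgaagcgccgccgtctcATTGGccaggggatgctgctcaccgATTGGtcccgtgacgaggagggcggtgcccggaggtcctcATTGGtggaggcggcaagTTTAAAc

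RefSeq promoters of 250 bases before and 50 bases after the start were found for 33 of the 40 genes, 26 of them with 1 annotated start. AURKA, BIRC5, BUB3, FOXM1, TPX2, TTK and UBE2C had no entry. TTTGAA was present on either strand in 24 of the 33 genes (72.7%), against 18.2% of the 27305 genes with a promoter. TTTAAA was present in 14 (42.4% against 14.5%), and 30 genes (90.9%) had at least 1 of these forms, against 27.9% of all genes and 21.2% of those tested here. The third form searched, TTCGAA, was found in 3 (9.09% against 1.82%). CCAAT was found in 28 (84.8% against 39.7%), and 18 genes (54.5%) had at least 2 copies in a single promoter, against 12.8% of all genes. A CHR or its variant began within the last 50 bases before the start in 19 genes (57.6% against 5.98%), as in the sequences of PLK1, CCNB2, CCNB1, KIF11, PRC1 and ASPM above. Genes with several starts had more sequence searched. Among genes with 1 start, 24 of the 26 mitosis genes had TTTGAA or TTTAAA, against 24.9% of 22114 genes. These are matches of letters, and binding was not measured.

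**Figure D1:**
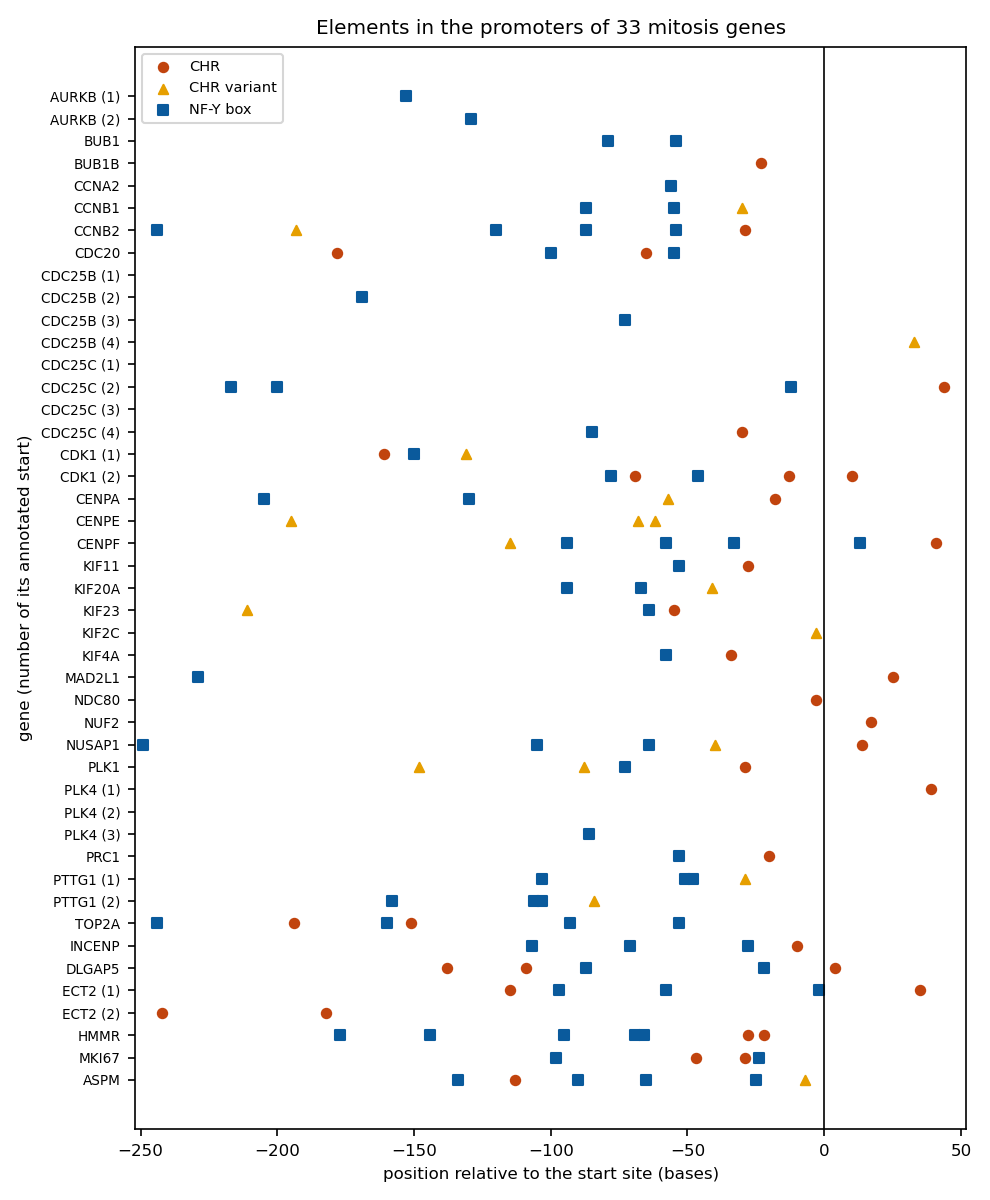
Position of the CHR (circles), its variant (triangles) and the NF-Y box (squares) relative to the annotated start, in bases, in each promoter of 33 mitosis genes, with genes of several starts on several numbered rows. In 19 of the 33 genes a CHR or variant begins within the last 50 bases before the start, and the NF-Y boxes mostly lie further upstream.

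In DMSO, all 40 genes were expressed and none was at 0 in any sample, so that all passed the filter of a mean of 0.5 FPKM. Their DMSO means had a median of 35.4 FPKM, against 11.7 over all tested genes. The most abundant was PTTG1 (securin, which holds back separase until anaphase) at 142 ± 2.47 FPKM (SD, n = 2), followed by CDK1 (the kinase that drives mitotic entry) at 126 ± 4.10 and TOP2A (topoisomerase II alpha, which untangles sister chromatids) at 124 ± 6.38. The levels of CDK1 and TOP2A lay within their SDs of each other. There were 9 genes at 100 FPKM or more, 7 between 50 and 100, 23 between 10 and 50, and 1 below 10. That 1 was UBE2C, the ubiquitin-conjugating enzyme of the anaphase-promoting complex, at 1.07 ± 0.20 FPKM. At so low a level the added 1 FPKM shrinks its differences more than those of the other genes.

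The 10 libraries had totals from 547504 to 689095 FPKM summed over genes, and no pair of them shared more than 0.0112% of its values above 0. The 5 µM CBP30 samples had the lowest totals (547504 and 551586). Replicate 1 of 2 µM CBP30 had the highest, against 605892 in its replicate 2. The 100 most abundant genes held 34.1% of the total in both 5 µM CBP30 samples, and 36.5% to 38.1% in the others. The table holds no read counts and depth is unknown, but 605 low genes gave relative depths from 0.945 to 1.05. All 11 erythroid markers of K562 were at 1 FPKM or more in every sample, with sums from 1981 to 2032 FPKM in DMSO, 726 to 944 and 646 to 673 with 2 and 5 µM CBP30, and 1191 to 1311 and 1138 to 1229 at the same concentrations of I-CBP112. Of 9 markers of lymphoid, stromal and endothelial cells, 6 were under 1 FPKM in every sample, and their sum was 2.59 to 2.70 FPKM in DMSO, 4.45 to 5.17 and 6.28 to 6.71 with CBP30, and 3.01 to 3.28 and 3.81 to 3.83 with I-CBP112, with MS4A1 and CDH5 at 0 throughout. The part of these shifts in the results below was not tested. The library that stood apart was replicate 1 of 2 µM CBP30, in which the mitosis genes with short transcripts were high and those with long transcripts were low, as described with the 2 µM comparison. Results are therefore also given with the trend with transcript length removed from every sample.

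The mitosis genes did not move together with CBP30. With 5 µM CBP30, 10 of the 40 rose (25%, against 21.2% of all tested genes called higher) and 5 fell (12.5%, against 25.4% called lower), and the median of the 40 was 0.05 on the log2 scale, against −0.01 over all genes. Their range was narrow, from −0.34 for AURKA to 0.68 for KIF11. The spindle motor KIF11, the spindle pole protein ASPM, the cytokinesis regulator ECT2 and the centriole kinase PLK4 rose most, and the kinases AURKA and PLK1, the microtubule depolymerase KIF2C, cyclin A2 (CCNA2) and the spindle assembly factor TPX2 fell. Both 5 µM samples lay above both DMSO samples in 19 of the 40 genes (against 39.5% of all tested genes) and below them in 13 (against 42.6%). After removal of the length trend, 16 rose (against 27.3% of all genes) and 4 fell (against 28%), 14 of them called in the same direction in both analyses. With quantile normalization 14 rose (against 24.6%) and 2 fell (against 24.9%), with KIF2C, CCNA2 and TPX2 no longer called (adjusted p = 0.112, 0.568 and 0.704). The counts and the share of all genes called moved together when single samples were left out (ranges at the end). A condition left with 1 sample adds nothing to the estimate of spread. Leaving out either sample of 2 µM CBP30 therefore gives nearly the same fit of this comparison, and the 2 fits are not separate checks.

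**Figure D2:**
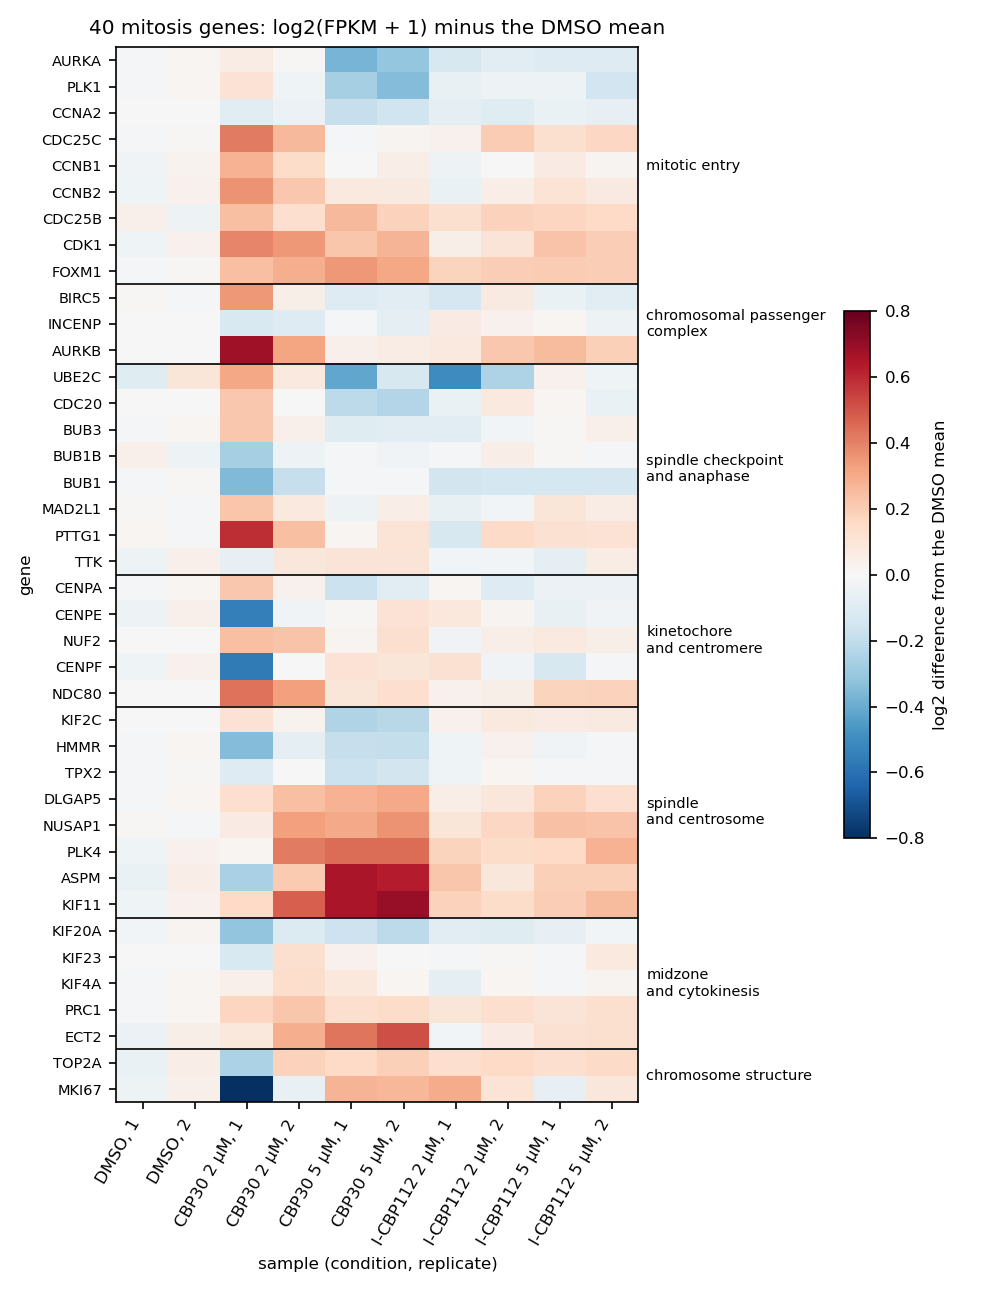
Difference from the DMSO mean, log2(FPKM + 1), of the 40 mitosis genes (rows, grouped by role) in each of the 10 samples (columns), with red for higher and blue for lower. Both 5 µM CBP30 samples show KIF11, ASPM, ECT2 and PLK4 in red and AURKA and PLK1 in blue, and replicate 1 of 2 µM CBP30 differs from its replicate 2, most in MKI67.

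KIF11 is the plus-end motor (Eg5) that pushes spindle poles apart, and its gene lies at chr10:94333862-94415152 on GRCh37. It was at 26.4 and 27.7 FPKM in DMSO, 30.3 and 38.1 with 2 µM CBP30, 43.0 and 44.5 with 5 µM CBP30, 30.9 and 30.0 under 2 µM I-CBP112, and 31.1 and 32.4 with 5 µM I-CBP112. All 8 treated samples were above both DMSO samples, and the 5 µM CBP30 pair was above every other sample. The 5 µM CBP30 mean was 162% of DMSO, a log2 difference of 0.68 (SE 0.10, limma adjusted p = 0.00133). KIF11 was called under every alternative analysis tried.

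ASPM, which focuses microtubule minus ends at the spindle pole, was at 14.8 and 16.04 FPKM in DMSO, 12.7 and 17.9 with 2 µM CBP30, 24.8 and 24.3 with 5 µM CBP30, 18.1 and 16.5 under 2 µM I-CBP112, and 17.7 in both samples with 5 µM I-CBP112. The 5 µM CBP30 samples stood above all others, and the 2 µM CBP30 samples lay on either side of DMSO. The difference at 5 µM CBP30 was 0.64 (SE 0.14, limma adjusted p = 0.00778), and 0.51 with the length trend removed. It was not called without DMSO replicate 1 (adjusted p = 0.0544).

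ECT2, the exchange factor that activates RhoA at the division site, was at 15.7 and 16.7 FPKM in DMSO, 17.2 and 20.1 with 2 µM CBP30, 22.1 and 23.6 with 5 µM CBP30, 15.9 and 17.0 under 2 µM I-CBP112, and 17.7 and 17.8 with 5 µM I-CBP112. With 5 µM CBP30 it rose by 0.47 (SE 0.08, limma adjusted p = 0.00268), to 141% of DMSO. PLK4, the kinase that starts centriole duplication, was at 16.7 and 17.5 FPKM in DMSO, 17.3 and 23.2 with 2 µM CBP30, 23.7 in both 5 µM CBP30 samples, 19.5 and 19.04 with 2 µM I-CBP112, and 19.2 and 21.0 with 5 µM I-CBP112. Its 2 µM CBP30 samples differed from each other by nearly as much as the 5 µM samples differed from DMSO. PLK4 rose by 0.45 at 5 µM (SE 0.12, limma adjusted p = 0.0197).

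NUSAP1, a protein that bundles spindle microtubules, was at 46.2 and 45.7 FPKM in DMSO, 48.2 and 57.9 with 2 µM CBP30, 56.9 and 59.1 with 5 µM CBP30, 49.1 and 51.6 under 2 µM I-CBP112, and 54.2 and 53.9 with 5 µM I-CBP112. It rose by 0.33 with 5 µM CBP30 (SE 0.08, limma adjusted p = 0.0143). The other genes that rose were FOXM1, the transcription factor of G2 and M phase genes (0.33), DLGAP5, a spindle stabilizer (0.29), CDK1 (0.25), CDC25B, a phosphatase that activates CDK1 (0.22), and PRC1, the microtubule crosslinker of the midzone (0.14).

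AURKA, the kinase of centrosome maturation at chr20:54944445-54967393 on GRCh37, was at 32.6 and 33.2 FPKM in DMSO, 34.3 and 33.2 with 2 µM CBP30, 25.2 and 26.4 with 5 µM CBP30, 30.0 and 31.0 under 2 µM I-CBP112, and 30.6 in both samples with 5 µM I-CBP112. The 5 µM CBP30 samples were the 2 lowest. The mean fell to 78.4% of DMSO, a log2 difference of −0.34 (SE 0.05, limma adjusted p = 0.00104). AURKA was called under every alternative tried, at −0.23 with the length trend removed.

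PLK1, the kinase that promotes mitotic entry and spindle assembly, was at 102 and 105 FPKM in DMSO, 112 and 101 with 2 µM CBP30, 86.0 and 81.2 with 5 µM CBP30, 99.3 and 101 under 2 µM I-CBP112, and 100.4 and 92.9 with 5 µM I-CBP112. It was lowest in the 5 µM CBP30 pair and fell by 0.30 (SE 0.07, limma adjusted p = 0.0082), but was not called without DMSO replicate 2 (adjusted p = 0.0504) or without replicate 2 of 5 µM CBP30 (adjusted p = 0.0607). KIF2C, which removes faulty microtubule attachments at centromeres, was at 114 and 113 FPKM in DMSO, 123 and 116 with 2 µM CBP30, 96.0 and 97.3 with 5 µM CBP30, 117 and 120.0 under 2 µM I-CBP112, and 119 and 119.6 with 5 µM I-CBP112. It fell by 0.23 with 5 µM CBP30 (SE 0.05, limma adjusted p = 0.00616), and was above DMSO in the other treated samples.

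CCNA2, the cyclin of S and G2 phase, was at 102 and 103 FPKM in DMSO, 97.0 and 99.4 with 2 µM CBP30, 90.1 and 91.8 with 5 µM CBP30, 97.4 and 96.0 under 2 µM I-CBP112, and 98.8 and 97.9 with 5 µM I-CBP112. All 8 treated samples were below both DMSO samples. It fell by 0.17 with 5 µM CBP30 (SE 0.04, limma adjusted p = 0.0123), and with the length trend removed it was not called (−0.11, adjusted p = 0.0515). TPX2, which activates AURKA on the spindle, was at 98.2 and 99.3 FPKM in DMSO, 91.8 and 98.4 with 2 µM CBP30, 87.7 and 89.0 with 5 µM CBP30, 96.6 and 100 under 2 µM I-CBP112, and 97.5 and 97.8 with 5 µM I-CBP112. It fell by 0.16 (SE 0.05, limma adjusted p = 0.0348).

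**Figure D3:**
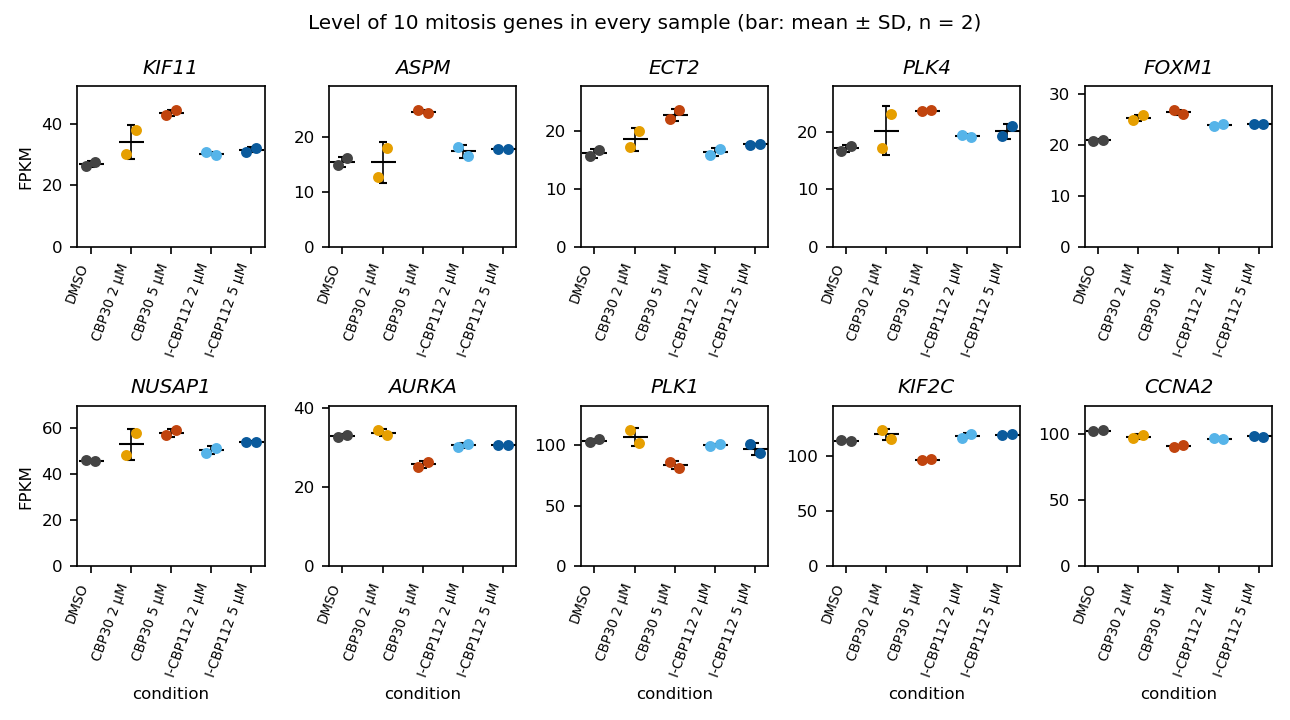
Level in FPKM of 10 mitosis genes in each sample of the 5 conditions (points), with the mean and SD of the 2 samples (bars). KIF11, ASPM, ECT2 and PLK4 are highest with 5 µM CBP30, where AURKA, PLK1, KIF2C and CCNA2 are lowest.

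By role, 7 of the 10 genes that rose with 5 µM CBP30 were spindle or midzone genes. Counts by role are to be read against the 21.2% of all tested genes that rose and the 25.4% that fell. Of 8 spindle and centrosome genes, 5 rose and 2 fell with 5 µM CBP30 (median 0.31), and HMMR, a spindle protein that was not called, was at −0.19. Of 5 midzone and cytokinesis genes, ECT2 and PRC1 rose, while the kinesins KIF20A (−0.19), KIF23 (0.01) and KIF4A (0.05) were not called. Of 9 genes of mitotic entry, 3 rose (CDK1, CDC25B and FOXM1) and 3 fell (AURKA, PLK1 and CCNA2). The mitotic cyclins CCNB1 (0.03) and CCNB2 (0.08) and the phosphatase CDC25C (0.01) were not called. With the length trend removed, 5 mitotic entry genes rose and 2 fell (against 27.3% and 28% of all genes). Spindle and centrosome genes again had 5 higher and 2 lower, and midzone and cytokinesis genes 2 higher and 0 lower. These counts describe small groups, and the difference between roles was not tested.

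None of the 8 spindle checkpoint and anaphase genes was called with 5 µM CBP30 (against 21.2% of all tested genes higher and 25.4% lower). They were the checkpoint kinases BUB1 (−0.01) and TTK (0.10), BUB1B (−0.02), BUB3 (−0.09) and MAD2L1 (0.01), the anaphase activator CDC20 (−0.22, limma adjusted p = 0.0552), UBE2C (−0.27) and PTTG1 (0.06). The 3 members of the chromosomal passenger complex, which corrects attachments and guides cytokinesis, were not called either, with AURKB at 0.05, its scaffold INCENP at −0.05 and BIRC5 (survivin) at −0.09. The same held for 5 kinetochore and centromere genes, and for TOP2A (0.18) and the proliferation marker MKI67 (0.27). The 5 were the histone variant CENPA (−0.13), the motor CENPE (0.06), CENPF (0.11) and the NDC80 complex subunits NDC80 (0.12) and NUF2 (0.08). With the length trend removed, 1 checkpoint gene, 1 passenger complex gene and 2 kinetochore genes were called higher, against 27.3% of all genes.

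The smallest differences with 5 µM CBP30 were those of CDC25C, MAD2L1 and BUB1. CDC25C was at 15.9 and 16.2 FPKM in DMSO, 21.7 and 19.4 with 2 µM CBP30, 15.9 and 16.3 with 5 µM CBP30, 16.4 and 18.6 under 2 µM I-CBP112, and 17.6 and 18.1 with 5 µM I-CBP112. Its interval at 5 µM CBP30 ran from −0.17 to 0.18. MAD2L1, the checkpoint protein that holds CDC20, was at 123 and 122 FPKM in DMSO, 143 and 129 with 2 µM CBP30, 119 and 127 with 5 µM CBP30, 118 and 121 under 2 µM I-CBP112, and 131 and 128 with 5 µM I-CBP112, with an interval from −0.14 to 0.15. BUB1 was at 84.3 and 85.3 FPKM in DMSO, 66.2 and 74.5 with 2 µM CBP30, 84.4 and 84.2 with 5 µM CBP30, 76.4 and 76.9 under 2 µM I-CBP112, and 76.8 and 77.3 with 5 µM I-CBP112, with an interval from −0.15 to 0.13. For all 3 the groups overlapped. At 5 µM CBP30, 33 of the 40 genes had a 95% interval within 0.5 of zero on the log2 scale.

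**Figure D4:**
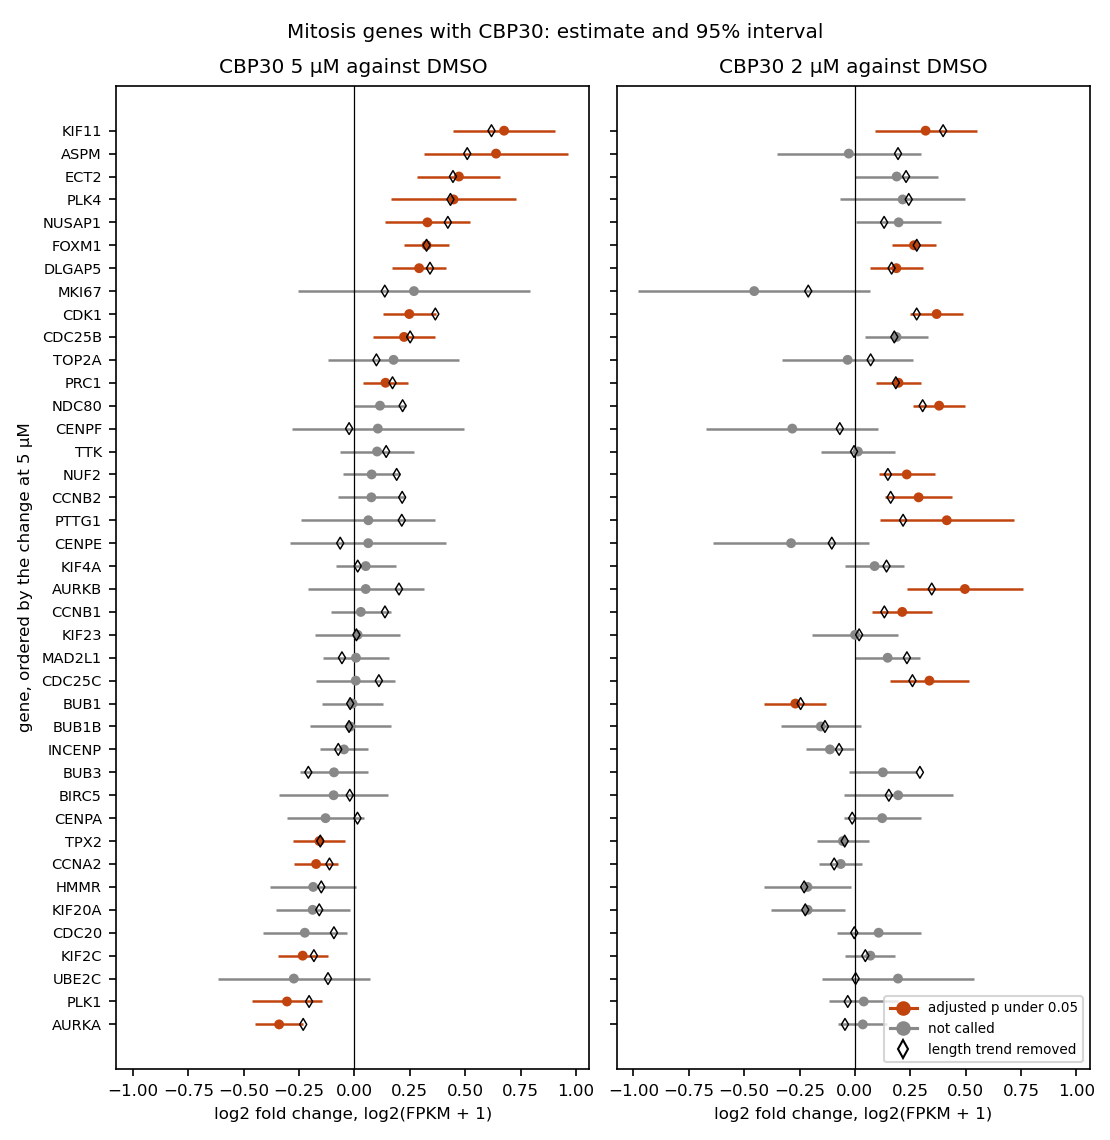
Log2 fold change of each of the 40 mitosis genes with 5 µM CBP30 (left) and 2 µM CBP30 (right) against DMSO, with its 95% interval, called genes in orange and the estimate with the length trend removed as an open diamond. At 5 µM the estimates run from −0.34 (AURKA) to 0.68 (KIF11), and several diamonds at 2 µM lie away from their points.

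With 2 µM CBP30, 12 of the 40 genes rose (30%, against 15.9% of all tested genes) and 1 fell (2.5%, against 16.3%), and the median was 0.12, against 0.01 over all genes. Both 2 µM samples lay above both DMSO samples in 21 of the 40 genes (against 31.4%) and below them in 6 (against 30.5%). The comparisons with 2 and 5 µM CBP30 share the DMSO samples, and 5 of the 12 genes were also called higher at 5 µM, namely CDK1, DLGAP5, FOXM1, KIF11 and PRC1. The other 7 were AURKB, PTTG1, NDC80, CDC25C, CCNB2, NUF2 and CCNB1, and BUB1 was the gene that fell. No gene was called lower at both, and 17 were called at neither. The fit shares 1 estimate of spread over the 5 conditions, and replicates differed most with 2 µM CBP30 (median gap 0.17). With only the groups compared, all 13 calls at 2 µM were lost, and few of all genes were called (shares given at the end).

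AURKB, the kinase of the chromosomal passenger complex, was at 48.4 FPKM in both DMSO samples, 78.1 and 60.5 with 2 µM CBP30, 49.9 and 50.4 with 5 µM CBP30, 51.1 and 56.4 under 2 µM I-CBP112, and 57.8 and 55.3 with 5 µM I-CBP112. The 2 µM CBP30 samples were its 2 highest, and they also lay further apart than those of any other condition. It rose by 0.50 (SE 0.11, limma adjusted p = 0.0154). PTTG1 was at 144 and 140.0 FPKM in DMSO, 214 and 168 with 2 µM CBP30, and 143 and 153 with 5 µM CBP30. It rose by 0.41 at 2 µM (SE 0.13, limma adjusted p = 0.0455). Both SEs pool the spread of all 5 conditions, and both genes varied most between the 2 µM CBP30 samples.

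CDK1 was at 123 and 129 FPKM in DMSO, 165 and 160.1 with 2 µM CBP30, 147 and 152 with 5 µM CBP30, 129.7 and 135 under 2 µM I-CBP112, and 147 and 144 with 5 µM I-CBP112. All treated samples were above both DMSO samples, and the 2 µM CBP30 pair was highest. CDK1 rose by 0.37 at 2 µM (SE 0.05, limma adjusted p = 0.00230) and by 0.25 at 5 µM (SE 0.05, limma adjusted p = 0.00619). NDC80, the kinetochore subunit that binds microtubules, was at 44.7 FPKM in both DMSO samples, 60.8 and 56.3 with 2 µM CBP30, and 47.9 and 49.2 with 5 µM CBP30, and rose by 0.38 at 2 µM (SE 0.05, limma adjusted p = 0.00184).

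The differences with 2 µM CBP30 followed transcript length. In its replicate 1, the 10 mitosis genes with the shortest transcripts were higher than in DMSO by a median of 0.29, and the 10 with the longest were lower (median −0.11). In replicate 2 both medians were positive (0.18 and 0.11). Across the 40 genes, Spearman's rho between the difference and length was −0.693 in replicate 1, −0.217 in replicate 2, and 0.393 and 0.313 in the 5 µM CBP30 replicates, against −0.468, −0.0438, 0.195 and 0.195 across 12135 genes. The genes of a sample share a library, so these are descriptions without a test. MKI67, with the longest transcript (12716 bases), was at 14.6 and 15.6 FPKM in DMSO, 7.95 and 14.4 with 2 µM CBP30, 18.4 in both samples with 5 µM CBP30, 18.8 and 16.4 under 2 µM I-CBP112, and 14.4 and 16.1 with 5 µM I-CBP112. Its 2 µM CBP30 replicates differed by 0.79 on the log2 scale, the largest such gap among the 40 genes. The median gap between replicates over the 40 was 0.17 with 2 µM CBP30, against 0.03 to 0.05 in the other conditions. Length is that of 1 annotated transcript of each gene and may differ from the one the authors used.

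**Figure D5:**
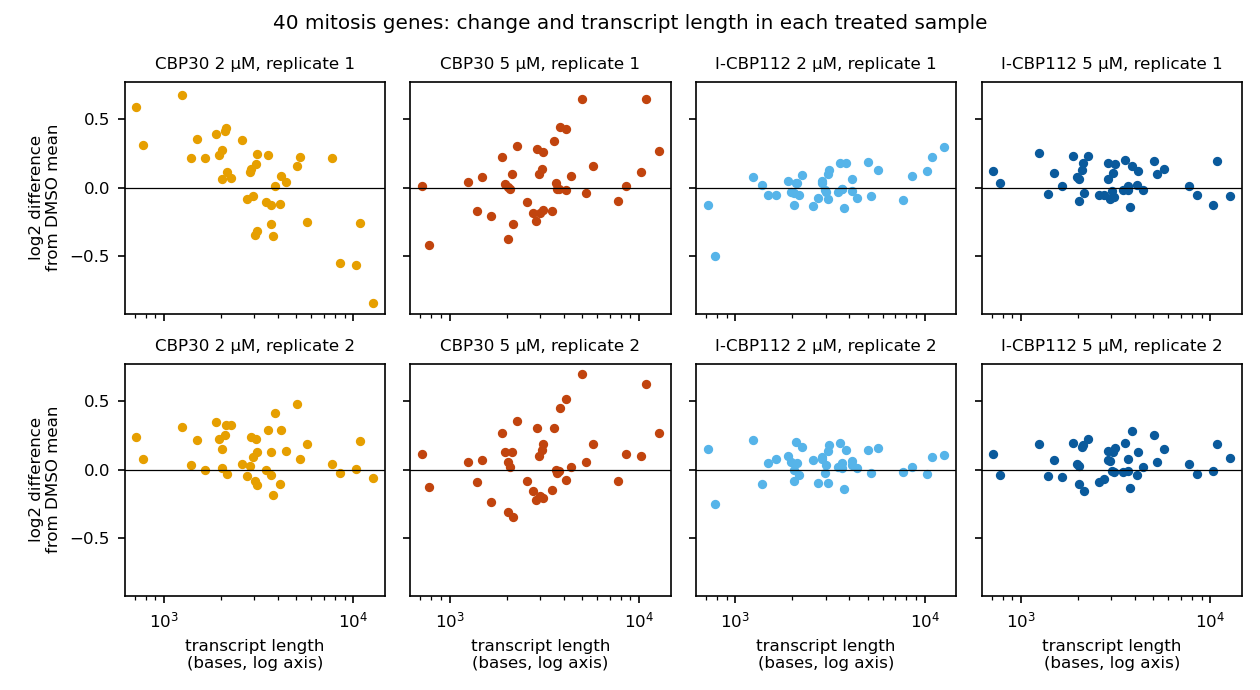
Difference from the DMSO mean, log2(FPKM + 1), against transcript length (bases, log axis) for the 40 mitosis genes in each treated sample. Points slope down in replicate 1 of 2 µM CBP30 (rho = −0.693) and much less in its replicate 2 (rho = −0.217).

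After removal of the length trend, 15 genes rose with 2 µM CBP30 (against 20.5% of all genes) and 2 fell (against 20.7%), and 12 were called in the same direction in both analyses. AURKB was then at 0.35, PTTG1 at 0.22, NDC80 at 0.31 and CDK1 at 0.28, each still called. NUF2 was no longer called (0.15, adjusted p = 0.0822). ASPM (0.19), ECT2 (0.23), CDC25B (0.18) and KIF4A (0.14) were called higher in addition, and KIF20A lower (−0.22). Without length correction, the counts depended strongly on which sample was left out, and so did the share of all genes called. Both ranges are given at the end.

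The 2 concentrations of CBP30 were compared directly. From 2 to 5 µM, 12 of the 40 genes were lower (30%, against 21.3% of all tested genes) and 5 higher (12.5%, against 17.6%). Both 5 µM samples were above both 2 µM samples in 13 genes (against 32.5%) and below them in 20 (against 37.8%). The genes called higher were MKI67 (0.72), ASPM (0.67), KIF11 (0.36), ECT2 (0.28) and BUB1 (0.26), and among the lower were UBE2C (−0.47), AURKB (−0.45), AURKA (−0.38), PLK1 (−0.34) and KIF2C (−0.30). In this comparison the difference rose with transcript length (rho = 0.792 across the 40 genes), and the genes called higher had a median length of 5016 bases, against 2031 for those called lower. Once the length trend was removed, rho was 0.303, 6 genes were lower (against 18.9% of all genes) and 5 higher (against 18.2%), and 9 were called in the same direction in both. ASPM (0.31), BUB1 (0.23), KIF11 (0.22) and ECT2 (0.21) were still higher. AURKA (−0.19), PLK1 (−0.17), KIF2C (−0.23), AURKB (−0.15) and BUB3 (−0.50) were still lower, while CCNB1, CCNB2 and CENPA changed sign. The correction made the fall of BUB3 larger, whose uncorrected means were 122 and 105 FPKM at 2 and 5 µM. Over the alternatives BUB3 ran from −0.50 to −0.02, and its call was lost in 11 of 21. The call of UBE2C, the gene with the lowest level, was lost in 14 of the 20 alternatives that tested it. None of the 17 calls held under every alternative. Leaving out single samples moved these counts widely, along with the share of all genes called (ranges at the end).

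With I-CBP112 few mitosis genes were called, and the count at 5 µM depended on the samples fitted. The shared spread includes the 2 µM CBP30 samples, which varied most. At 5 µM, 1 of the 40 rose (2.5%, against 3.84% of all tested genes) and 0 fell (against 3.28%), with a median of 0.04. Both samples were above both DMSO samples in 19 genes (against 30.5%) and below them in 7 (against 33.7%). The called gene was FOXM1, at chr12:2966846-2986340 on GRCh37. It was at 20.7 and 21.0 FPKM in DMSO, 24.9 and 25.8 with 2 µM CBP30, 26.8 and 26.1 with 5 µM CBP30, 23.8 and 24.1 under 2 µM I-CBP112, and 24.2 and 24.1 with 5 µM I-CBP112. All 8 treated samples were above both DMSO samples, and the CBP30 samples were above the I-CBP112 samples. FOXM1 rose by 0.33 with 5 µM CBP30 (SE 0.04, limma adjusted p = 0.000891), by 0.27 with 2 µM CBP30 (adjusted p = 0.00444) and by 0.20 with 5 µM I-CBP112 (adjusted p = 0.0384), and its difference with 2 µM I-CBP112 was 0.19 (adjusted p = 0.0990). The call with 5 µM I-CBP112 was lost in 10 of 21 alternatives.

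When the length trend was removed, 6 genes rose with 5 µM I-CBP112 (against 7.66% of all genes) and 0 fell (against 7.64%), namely FOXM1, CDK1, NDC80, AURKB, KIF11 and ASPM, with differences from 0.18 to 0.23. The number that rose was largest when a sample of 2 µM CBP30 was left out, and the share of all genes called also varied (ranges at the end). With 2 µM I-CBP112, 0 genes rose and 0 fell in limma (against 0.868% and 0.735% of all tested genes), with a median of 0.02. Both samples were above DMSO in 16 genes (against 25%) and below it in 8 (against 28.3%), and with the length trend removed 1 gene, FOXM1, rose (0.19, against 2.46% of all genes) and 0 fell (against 2.19%). Leaving out either sample of 2 µM CBP30 gives nearly the same fit here, and the ranges are given at the end. The 95% intervals of 38 genes at 2 µM and of 37 at 5 µM I-CBP112 lay within 0.5 of zero. Between the 2 concentrations of I-CBP112, 0 genes rose and 0 fell (against 0.0547% and 0.00782% of all tested genes). The same was found with the length trend removed (against 0.0742% and 0.0165%). The 5 µM samples were above both 2 µM samples in 14 genes (against 23.1%) and below them in 3 (against 23.2%). No alternative gave a call among the 40 in this comparison.

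The compounds were also compared at matched concentration. At 5 µM, 3 of the 40 genes were higher with CBP30 than with I-CBP112 (7.5%, against 13.6% of all tested genes) and 2 were lower (5%, against 17.9%). Both CBP30 samples were above both I-CBP112 samples in 15 genes (against 37.4%) and below them in 16 (against 41.5%). KIF11 (0.45, SE 0.10, limma adjusted p = 0.0132), ASPM (0.45, SE 0.14, adjusted p = 0.0451) and ECT2 (0.35, SE 0.08, adjusted p = 0.0168) were higher, and KIF2C (−0.30, SE 0.05, adjusted p = 0.00396) and AURKA (−0.24, SE 0.05, adjusted p = 0.00913) were lower. For PLK1 the difference between compounds was −0.21 and was not called, and for CDK1 it was 0.04, with an interval from −0.08 to 0.15. In the analysis corrected for length 6 genes were higher (against 19.6% of all genes) and 2 lower (against 20.7%), and AURKA was no longer called (−0.13, adjusted p = 0.0711). These counts also varied with the sample left out, as did the share of all genes called (ranges at the end). Over all alternatives KIF11 stayed between 0.39 and 0.52 and KIF2C between −0.31 and −0.19.

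At 2 µM, 6 genes were higher with CBP30 than with I-CBP112 (15%, against 7.13% of all tested genes) and 0 were lower (against 8.45%). Both CBP30 samples were above both I-CBP112 samples in 19 genes (against 28.1%) and below them in 7 (against 27.2%). The called genes were UBE2C (0.57), NDC80 (0.34), CDK1 (0.29), CCNB2 (0.29), CCNB1 (0.24) and NUF2 (0.22), all with transcripts of 2126 bases or less. UBE2C had the lowest level of the 40 genes (1.07 FPKM in DMSO). Its call was lost in 14 of the 20 alternatives that tested it. Of 21 alternatives, the call was lost in 14 for NUF2, 12 for CCNB2, 11 for CCNB1, 4 for CDK1 and 3 for NDC80. Removal of the length trend gave 7 higher (against 11.8% of all genes) and 0 lower (against 13%), of which NDC80, CDK1 and CCNB1 were among these 6. With the replicate number as a block 2 were higher (against 4.84%). Here too the counts and the share of all genes called varied with the sample left out (ranges at the end).

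Genes with and without the TTTGAA form of the CHR were set side by side. Genes without it do not all lack a CHR, because CCNB1, KIF20A and KIF2C among them carry the variant TTTAAA. With 5 µM CBP30, where 21.2% of all tested genes rose and 25.4% fell, 8 of the 24 genes with TTTGAA in a promoter rose and 1 fell (median 0.09), and of the 9 genes with a promoter but without TTTGAA, 1 rose and 2 fell (median 0.03). With 2 µM CBP30, 8 of the 24 and 3 of the 9 rose (against 15.9% of all tested genes), and 0 and 1 fell (against 16.3%). KIF11 and PRC1, which rose, and PLK1, which fell, all have TTTGAA and CCAAT upstream of the start in the sequences above. Split by TTTAAA instead, 4 of 14 genes with it and 5 of 19 without it rose with 5 µM CBP30 (against 21.2%). Of the same groups, 2 and 1 fell (against 25.4%). The differences between these groups were not tested.

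Other genes of the same machinery were followed with 5 µM CBP30, and their counts are to be read against the 21.2% of all tested genes that rose and the 25.4% that fell (27.3% and 28% with length corrected for). Of 16 genes of the anaphase-promoting complex (the ubiquitin ligase that degrades securin and cyclin B) and its regulators, 7 fell (43.8%) and 0 rose (median −0.22), among them the subunits ANAPC7 (−0.46) and ANAPC1 (−0.40). ANAPC7 was at 90.7 and 87.0 FPKM in DMSO and 63.6 and 64.8 with 5 µM CBP30. With length corrected for, 7 of the 16 fell and 2 rose. Of 20 cohesin and condensin genes, 4 rose (20%) and 0 fell (median 0.15), among them STAG1 (0.45) and PDS5B (0.35), a subunit and a regulator of cohesin. After the same correction 8 rose and 1 fell.

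Of 31 further kinetochore genes, 6 rose (19.4%) and 5 fell (16.1%), both below the shares over all genes. The NDC80 complex subunit SPC25 (0.44) and the centromere protein CENPI (0.53) were higher. The centromere proteins CENPT (−0.61) and CENPH (−0.34) were lower. With length corrected for, 11 rose (35.5%, against 27.3% of all genes) and 5 fell (16.1%, against 28%). SPC25 was at 71.3 and 73.8 FPKM in DMSO, 144 and 133 with 2 µM CBP30, 99.0 and 98.4 with 5 µM CBP30, 90.9 and 97.7 under 2 µM I-CBP112, and 111 and 108 with 5 µM I-CBP112. All of its treated samples were above DMSO, and it was called higher in all 4 comparisons with DMSO. Of 24 further spindle and cytokinesis genes, 5 rose (20.8%) and 2 fell (8.33%). The cleavage furrow protein ANLN (0.60) and the abscission protein CEP55 (0.46) were higher, and FAM83D (−0.32) and the chromokinesin KIF22 (−0.29) lower. After the same correction 9 rose (37.5%, against 27.3%) and 3 fell (12.5%, against 28%).

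Of 12 brakes and switches of mitotic entry, 3 rose and 3 fell (25% each), near the shares over all genes. The kinases PKMYT1 (−0.59) and WEE1 (−0.30), which hold CDK1 inactive, were lower. The CDK inhibitor CDKN1A (1.51) and ARPP19 (0.54), an inhibitor of the phosphatase that opposes CDK1, were higher. Length correction gave 7 of the 12 higher (58.3%, against 27.3% of all genes) and 3 lower (25%, against 28%). CDKN1A was at 5.20 and 5.91 FPKM in DMSO, 11.3 and 8.91 with 2 µM CBP30, 17.0 and 18.3 with 5 µM CBP30, 8.19 and 10.1 under 2 µM I-CBP112, and 12.02 and 10.7 with 5 µM I-CBP112. Every treated sample was above DMSO, and its difference at 5 µM CBP30 (SE 0.13, limma adjusted p = 0.000161) exceeded that of every mitosis gene. Of 15 genes of DREAM, MuvB, B-MYB and NF-Y, 5 fell (33.3%) and 1 rose (6.67%). E2F5 (−0.59) and E2F4 (−0.43) were lower and the NF-Y subunit NFYA (0.45) higher. Corrected for length, 5 of the 15 fell (33.3%, against 28%) and 2 rose (13.3%, against 27.3%).

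As a comparison within the cell cycle, 9 of 42 DNA replication genes rose (21.4%, against 21.2% of all tested genes) and 13 fell (31%, against 25.4%) with 5 µM CBP30 (median 0.00). The licensing factor CDT1 (−0.79) and the polymerase subunit POLD2 (−0.66) fell, and the ribonucleotide reductase subunit RRM2 (0.43) and POLD3 (0.29) rose. With 2 µM CBP30, 10 of these 42 rose (23.8%, against 15.9%) and 2 fell (4.76%, against 16.3%). Length correction gave 14 higher (33.3%, against 27.3%) and 11 lower (26.2%, against 28%) with 5 µM CBP30. At 2 µM the corrected shares were 35.7% higher (against 20.5%) and 11.9% lower (against 20.7%). These lists are described by their counts and were tested neither against the mitosis genes nor against all genes.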

How the data were processed

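Poly(A)+ RNA of K562 cells was sequenced as stranded single-read libraries by the authors, who deposited FPKM values for each gene and sample. The submitters' processing notes name FastQC, TopHat2 2.0.10, Bowtie 1.0.0, SAMtools 0.1.19, Cufflinks 2.2.1 and Cuffnorm on GRCh37, and the paper names the Nextpresso pipeline. The annotation release is not given in the sources used here. Depth is unknown, so precision rests on 2 samples per condition. If replicates were not separate cultures, p-values measure technical spread only.

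FPKM values averaging 0.5 or more over the 10 samples (12788 genes) were put on the log2(FPKM + 1) scale, and a single limma 3.58.1 fit was run on all samples (R 4.3.3, eBayes with trend, 5 residual degrees of freedom). The log2 scale with this pseudocount understates changes of low genes. The length trend was removed per sample by lowess (span 0.3) over 12135 genes with a GENCODE transcript. The fit was tested on simulated data. All 40 genes were named, and values in every sample were given for the 6 largest and 3 smallest differences with 5 µM CBP30, for called genes against the majority and for genes called with I-CBP112. AURKB, PTTG1, NDC80, CDK1, MKI67, ANAPC7, SPC25 and CDKN1A were shown in more samples after their values were seen. From the pathway lists, the 2 called genes that fell most and the 2 that rose most were named. The genes and lists were chosen with earlier results of these data known. Alternatives were quantile normalization, median centring, a filter at 5 FPKM or none, another pseudocount (0.1), eBayes without trend, only the groups compared, a replicate block, length correction with and without the block, and leaving out each sample. Promoters were searched in Python 3.11.15.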

Additional observations from a re-analysis of the deposited data

How the results depend on the processing

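Directions of the called mitosis genes held in all alternatives, except that with the length trend removed, with or without the replicate block, the differences from 2 to 5 µM CBP30 of CCNB1 (0.0045), CCNB2 (0.054) and CENPA (0.026) were positive. CCNB2 was also positive (0.00195) with the length trend removed and without the first 2 µM CBP30 sample, an alternative added after seeing the data. Of 15 calls with 5 µM CBP30, 6 (AURKA, CDK1, DLGAP5, ECT2, FOXM1 and KIF11) held in all 21 alternatives, and of 13 calls with 2 µM CBP30, 0 did. The causes were not tested.

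Counts of mitosis genes changed as follows, each with the share of all tested genes called in the same setting and direction. With only the groups compared, 5 µM CBP30 gave 10 lower (32.6%), 2 µM CBP30 0 lower (1.28%) and 0 higher (1.12%), 5 µM I-CBP112 1 lower (6.69%) and 5 higher (6.29%), 5 against 2 µM CBP30 0 lower (0.0313%) and 0 higher (0.0156%), CBP30 against I-CBP112 at 5 µM 11 lower (27.6%) and 8 higher (23.7%), and at 2 µM 0 higher (0.0391%). With quantile normalization, 5 µM CBP30 gave 2 lower (24.9%), 5 µM I-CBP112 2 higher (4.31%) and the 5 µM compounds 5 higher (17.5%). With a mean of 5 FPKM, 2 µM CBP30 gave 2 lower (18.1%) and the 2 µM compounds 1 lower (9.1%). 5 µM I-CBP112 gave 2 higher (2.51%) without a filter and 0 (3.86%) with eBayes without trend. With the length trend removed, 5 µM CBP30 gave 16 higher (27.3%), 2 µM CBP30 2 lower (20.7%), 5 µM I-CBP112 6 higher (7.66%), 2 µM I-CBP112 1 higher (2.46%), 5 against 2 µM CBP30 6 lower (18.9%), and the 5 µM compounds 6 higher (19.6%). Without the first 2 µM CBP30 sample as well, there were 8 lower (32.3%) and 17 higher (31.9%) for 5 µM CBP30, 1 lower (14.4%) and 12 higher (12.5%) for 5 µM I-CBP112, 1 lower (6.34%) and 5 higher (5.41%) for 2 µM I-CBP112, 5 lower (15.4%) and 2 higher (15.2%) between CBP30 concentrations, 7 lower (26.4%) and 12 higher (25.8%) between compounds at 5 µM, and 1 lower (11.9%) and 10 higher (9.75%) at 2 µM.

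Same-numbered samples did not deviate together (correlations from −0.0681 to 0.0939), and the numbers share nothing else in the labels. With the replicate block, 5 µM CBP30 gave 5 lower (24.5%) and 10 higher (20.4%), 2 µM CBP30 1 lower (15.2%) and 11 higher (14.5%), 5 µM I-CBP112 0 higher (2.74%), 5 against 2 µM CBP30 8 lower (19.6%) and 5 higher (15.9%), and the compounds 2 higher (4.84%) at 2 µM. With the block and length correction together, 5 µM CBP30 gave 16 higher (27%), 2 µM CBP30 2 lower (20.3%), I-CBP112 6 higher (6.91%) at 5 µM and 1 (1.74%) at 2 µM, 5 against 2 µM CBP30 7 lower (18.6%), and the 5 µM compounds 6 higher (19.1%).

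Leaving out 1 sample at a time, 5 µM CBP30 gave 2 to 9 lower (17.5% to 33.5%) and 6 to 13 higher (14.3% to 29.5%). There were 0 to 10 lower (7.8% to 28.1%) and 3 to 19 higher (7.06% to 28.6%) with 2 µM CBP30, 0 to 1 lower (0.618% to 12.4%) and 0 to 11 higher (0.915% to 10.5%) with 5 µM I-CBP112, and 0 to 1 lower (0.0938% to 4.9%) and 0 to 1 higher (0.156% to 4.17%) with 2 µM I-CBP112. Between CBP30 concentrations there were 2 to 18 lower (4.93% to 33.6%) and 0 to 15 higher (3.13% to 28.7%). The compounds differed in 1 to 10 lower (8.68% to 28.2%) and 0 to 8 higher (5.62% to 24%) at 5 µM, and in 0 to 11 lower (1.92% to 25.9%) and 0 to 15 higher (1.06% to 27.2%) at 2 µM. Several of the highest counts came without 1 of the 2 µM CBP30 samples, the condition with the widest spread. A lone sample is then assumed to vary like the other groups. Depth is unknown, and its limit on UBE2C was not tested.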
